A study of Mus musculus with 6 samples.

Results

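The genes described here are 10 regulators of the G1 phase of the cell cycle, matched by symbol in the gene-level expression table of motor neurons (MNs) derived from mouse embryonic stem cells (mESCs). All 10 were found, among the 14926 named genes that reached 1 FPKM in one genotype or the other and were above 0 FPKM in each. FPKM counts sequenced fragments relative to exon length and library size, so levels of different genes can be compared per length. For a symbol listed more than once, the entry at the highest level was read. Control MNs (Hb9 MNs below) came from the Hb9 line, labelled wildtype, and SMA MNs (A2 MNs) from the A2 line, with the genotype SMN2+/+;mSmn-/-. Per the study's methods both lines carry the human SMN2 transgene and an eGFP reporter under the Hb9 promoter. Both are on the FVB/N background, and each is a single mESC line, so genotype and line cannot be told apart. Embryoid bodies were exposed for 5 days to 1 µM retinoic acid and 1 µM Smoothened agonist, and eGFP-positive cells were collected by FACS. RNA from 3 samples per genotype was sequenced. The table gives the authors' pooled value for each genotype, with no value per sample, so the spread between samples is unknown and no difference below carries a standard error or a p-value.

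A cell leaving mitosis either commits to another round of DNA replication or withdraws from the cycle, and this choice is made in G1. D-type cyclins bind Cdk4 and Cdk6, and E-type cyclins bind Cdk2. These kinases phosphorylate the retinoblastoma family and release E2F factors, which switch on genes of DNA replication. INK4 inhibitors bind Cdk4 and Cdk6, whereas CIP/KIP inhibitors such as p27 bind cyclin-CDK complexes, and newborn MNs exit the cycle with p27 present. mESCs cycle with a short G1 phase and abundant cyclin E.

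Smn1, the targeted gene, was at 137 FPKM in Hb9 MNs and 5.26 FPKM in A2 MNs. The median gene had a log2 ratio (A2 SMA over Hb9 control) of -0.29, so the ratio of each member is also given relative to that gene. Of the MN markers, Mnx1 (which encodes Hb9) was at 41.2 and 44.2 FPKM, whereas the other 5 above the FPKM filter (Isl1, Isl2, Lhx3, Lhx4 and Chat) had log2 ratios from -6.31 to -2.57. The summed level of 7 MN markers was 216 FPKM in Hb9 MNs and 52.5 FPKM in A2 MNs. For 6 markers of pluripotent cells it was 210 and 1427 FPKM, for 5 of neural progenitors 740 and 35.0 FPKM, for 4 pan-neuronal genes 563 and 97.4 FPKM and for 6 fibroblast genes 61.5 and 31.6 FPKM. Not every marker followed its sum. Of the progenitor markers Hes5, Fabp7, Olig2 and Nes had log2 ratios from -7.55 to -3.23, with Fabp7 alone at 554 FPKM in Hb9 MNs, whereas Pax6 was at 22.4 and 21.4 FPKM (log2 ratio -0.07). The pan-neuronal genes Nefl, Rbfox3, Snap25 and Stmn2 lay between -4.13 and -1.63. All 6 pluripotency markers were higher, with log2 ratios from 1.16 to 3.37 that were highest for Tdgf1, Pou5f1, Esrrb, Zfp42 and Nanog. Of the fibroblast genes Postn, Col3a1, Col1a2 and Col1a1 were at least 2-fold lower, as were 22.4% of all genes, but relative to the median gene Postn alone was. In that list Thy1 was 2.27-fold higher (0.970 and 2.20 FPKM) and Dcn was at 3.77 and 4.16 FPKM. No marker was at 0 FPKM in either genotype. The part of these markers in the results below was not tested, and in sorted bulk samples fewer cells of a type and less RNA per cell cannot be told apart. The proliferation markers Mki67 (46.3 and 37.9 FPKM), Top2a (384 and 334 FPKM) and Birc5 (96.4 and 102 FPKM) had log2 ratios from -0.29 to 0.08. Relative to the median gene all 3 were above 0, from 0.002 for Mki67 to 0.37 for Birc5.

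Among the 10 G1 regulators, 2 D-type cyclins and both CDK inhibitors were at least 2-fold lower in A2 MNs. These 4 were Ccnd2, Cdkn2c, Ccnd1 and Cdkn1b, and 22.4% of all genes were at least 2-fold lower. Ccnd3 and Ccne1 were higher by 1.83-fold and 1.85-fold, and the 3 kinases differed by less than 1.5-fold. No member was at least 2-fold higher, against 6.83% of all genes. In all, 7 members were lower, a share close to the 65.9% of all genes, and 3 were higher, against 34.1%. The median log2 ratio of the members was -0.53, and -0.24 relative to the median gene. Relative to the median gene 2 members (Ccnd3 and Ccne1) were at least 2-fold higher, against 10.4% of all genes, and 3 (Ccnd1, Ccnd2 and Cdkn2c) were at least 2-fold lower, against 16.5%.

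**Figure D1:**
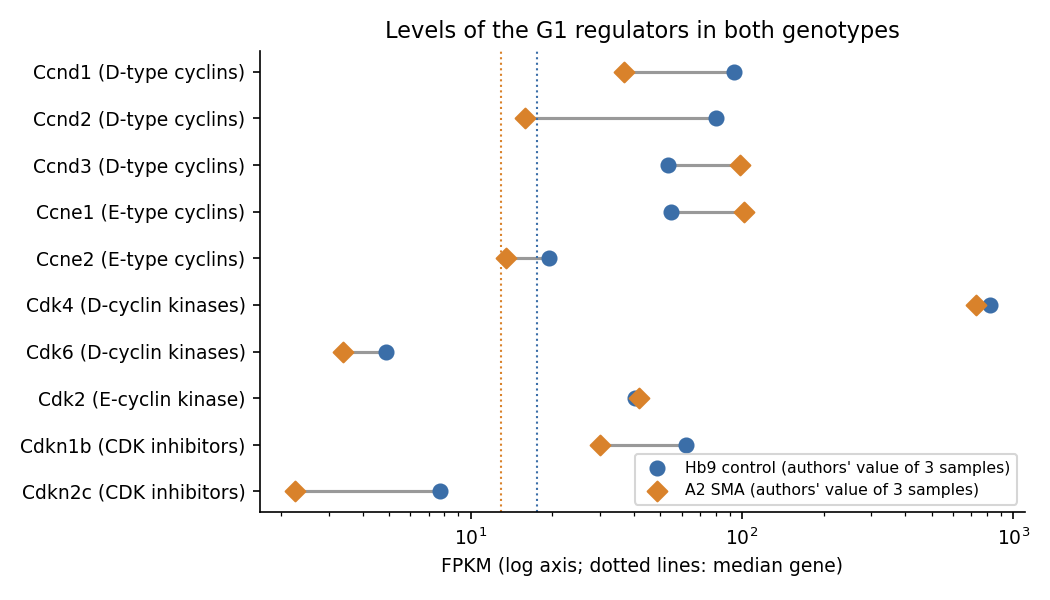
Level of each G1 regulator in FPKM (log axis) in Hb9 MNs (circles) and A2 MNs (diamonds), 1 pooled value of 3 samples per genotype, with dotted lines at the median gene of each genotype. Ccnd1, Ccnd2, Cdkn1b and Cdkn2c lie to the left in A2 MNs, Ccnd3 and Ccne1 to the right, and Cdk4 is far above the others in both.

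The D-type cyclins couple growth signals to the cycle, and the 3 genes did not move together. Ccnd1, the D-type cyclin that mitogens induce in many cells, was at 93.8 FPKM in Hb9 MNs and 36.8 FPKM in A2 MNs. Its log2 ratio was -1.35, a 2.55-fold lower level in A2 MNs, and -1.06 relative to the median gene. Of all genes, 15.4% had a lower ratio. The table places Ccnd1 on chromosome 7 from 152101005 to 152125774 (NCBI m37), in a locus shared with Oraov1.

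Ccnd2, a D-type cyclin of neural progenitors, was at 80.0 FPKM in Hb9 MNs and 15.9 FPKM in A2 MNs. This log2 ratio of -2.33 (-2.04 relative to the median gene), a 5.03-fold lower level, was the lowest of the 10 members, and 6.81% of all genes were lower still. Ccnd2 has 2 entries in the same locus on chromosome 6 (127075180 to 127162429). The other entry was at 10.7 and 2.37 FPKM, a log2 ratio of -2.18. The entries thus differed by 0.16 on the log2 scale, where the median difference over 516 symbols with at least 2 entries was 0.27. Both entries have the status FAIL, which Cuffdiff gives when a numerical problem kept it from testing a gene.

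Ccnd3, on chromosome 17 from 47642000 to 47748472, went the other way, with 53.4 FPKM in Hb9 MNs and 98.0 FPKM in A2 MNs. The log2 ratio was 0.88, and 92.0% of all genes had a lower one. Relative to the median gene it was 1.17, which is a 2.24-fold difference. The order of the D-type cyclins was therefore Ccnd1, Ccnd2, Ccnd3 in Hb9 MNs and Ccnd3, Ccnd1, Ccnd2 in A2 MNs.

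Shares within a family do not depend on how the genotypes are scaled. Ccnd3 held 23.5% of the summed D-type cyclin level in Hb9 MNs and 65.0% in A2 MNs. Ccnd1 held 41.3% and 24.4%, and Ccnd2 held 35.2% and 10.5%. The level of Ccnd3 was 0.570 times that of Ccnd1 in Hb9 MNs and 2.66 times in A2 MNs, a 4.68-fold difference between the genotypes. The summed level of the family was 227 FPKM in Hb9 MNs and 151 FPKM in A2 MNs. Its log2 ratio of -0.59, or -0.30 relative to the median gene, was smaller in size than that of any single D-type cyclin.

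**Figure D2:**
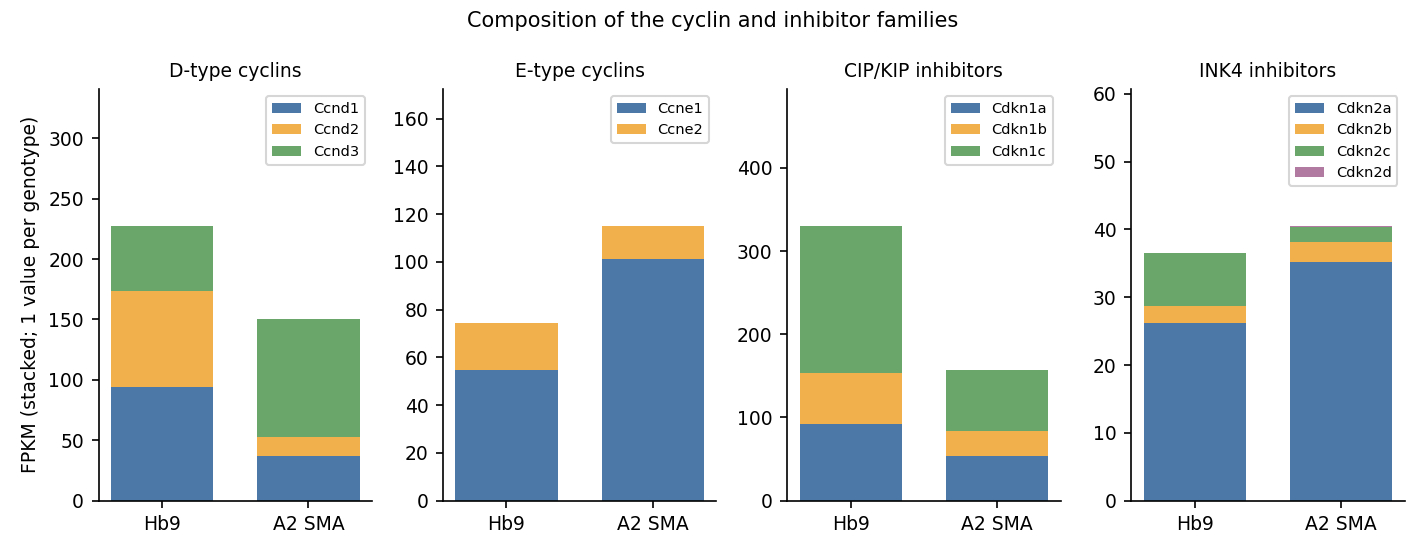
Stacked FPKM of the D-type cyclins, E-type cyclins, CIP/KIP inhibitors and INK4 inhibitors in Hb9 control and A2 MNs, 1 pooled value per gene and genotype, on linear axes that start at 0. Ccnd3 takes 65.0% of the D-type cyclin level in A2 MNs against 23.5% in Hb9 MNs, and the CIP/KIP sum is 330 FPKM in Hb9 MNs and 157 FPKM in A2 MNs.

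The E-type cyclins act later in G1 and drive entry into S phase. Ccne1, on chromosome 7 from 38883003 to 38893460, was at 54.7 FPKM in Hb9 MNs and 101 FPKM in A2 MNs. Its log2 ratio was 0.89, above that of 92.1% of all genes, and 1.18 relative to the median gene, a 2.27-fold difference. The entry has the status FAIL. Ccne2, on chromosome 4 from 11118498 to 11181405, was at 19.5 and 13.5 FPKM, with a log2 ratio of -0.53 and of -0.24 relative to the median gene. The level of Ccne1 was 2.80 times that of Ccne2 in Hb9 MNs and 7.49 times in A2 MNs. Summed D-type cyclins were at 3.06 times the summed E-type cyclins in Hb9 MNs and at 1.31 times in A2 MNs, a 2.34-fold difference.

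The promoter of Ccne1 is shown because Ccne1 was, with Ccnd3, 1 of the 2 members with the highest log2 ratios. It spans chr7:38107441-38107740 of GRCm38.p6 on the minus strand, from 250 bases before to 50 bases after the start (RefSeq), and capitals mark GC boxes (GGGCGG on either strand).
Ccne1: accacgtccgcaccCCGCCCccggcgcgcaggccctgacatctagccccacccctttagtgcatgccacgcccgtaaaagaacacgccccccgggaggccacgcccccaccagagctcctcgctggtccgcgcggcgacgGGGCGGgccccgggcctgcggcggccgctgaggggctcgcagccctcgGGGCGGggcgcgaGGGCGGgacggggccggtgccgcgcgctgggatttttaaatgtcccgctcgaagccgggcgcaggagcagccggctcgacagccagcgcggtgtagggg
This window has 4 GC boxes and a GC content of 76.0%, where the median promoter has 52.7%. A GC box is present in 35.7% of 32851 promoters and in 6 of the 7 members with a promoter in the table, all but Cdk6. A member with 2 promoters was counted where either held a GC box. Of the 2 promoters of Cdkn2c, a member with a low ratio, 1 also has 4 GC boxes, at a GC content of 73.3%.

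Each of the 3 kinases differed by less than 1.5-fold, as deposited and relative to the median gene. In NCBI m37 coordinates Cdk4 (126500590 to 126507317) and Cdk2 (128134995 to 128142107) are both on chromosome 10, and Cdk6 (3343799 to 3530993) is on chromosome 5. Cdk4, which binds D-type cyclins, was at 819 FPKM in Hb9 MNs and 729 FPKM in A2 MNs, above 99.8% of all genes in each. Its log2 ratio was -0.17, but 0.12 relative to the median gene, so its direction depends on the scaling. Cdk6, which also binds D-type cyclins, was at 4.87 and 3.39 FPKM, above 24.6% and 25.1% of all genes. Its log2 ratio was -0.52, and -0.23 relative to the median gene. The level of Cdk4 was 168 times that of Cdk6 in Hb9 MNs and 215 times in A2 MNs. Cdk2, the partner of E-type cyclins, was at 40.3 and 41.9 FPKM, a log2 ratio of 0.05 that became 0.34 relative to the median gene. Its entry has the status FAIL. Cdk4 made up 94.8% of the summed level of the 3 kinases in Hb9 MNs and 94.2% in A2 MNs. Its level was 3.60 times that of the summed D-type cyclins in Hb9 MNs and 4.84 times in A2 MNs.

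The promoters of both well expressed kinases are shown because, of the members with a promoter in the table, Cdk4 has the most E-boxes and Cdk2 alone has an E2F site. That of Cdk4 lies at chr10:127063285-127063584 (plus strand, GRCm38.p6) with E-boxes (CACGTG, the same on both strands) in capitals, and that of Cdk2 at chr10:128705002-128705301 (minus strand) with an E2F site (TTTCCCGC, TTTGGCGC or TTTCGCGC on either strand) in capitals.
Cdk4: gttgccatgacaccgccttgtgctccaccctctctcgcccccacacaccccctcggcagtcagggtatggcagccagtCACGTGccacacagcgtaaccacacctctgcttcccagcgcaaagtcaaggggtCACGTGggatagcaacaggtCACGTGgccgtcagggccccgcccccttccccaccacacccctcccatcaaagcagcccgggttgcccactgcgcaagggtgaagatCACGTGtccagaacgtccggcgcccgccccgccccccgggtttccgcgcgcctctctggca
Cdk2: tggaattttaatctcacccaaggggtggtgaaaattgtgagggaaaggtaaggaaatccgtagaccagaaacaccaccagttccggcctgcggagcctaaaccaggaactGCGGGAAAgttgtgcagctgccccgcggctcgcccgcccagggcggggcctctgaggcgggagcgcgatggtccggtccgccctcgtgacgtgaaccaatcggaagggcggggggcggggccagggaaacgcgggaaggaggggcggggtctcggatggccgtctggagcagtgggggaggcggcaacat
The Cdk4 window holds 4 E-boxes, the site that Myc family factors bind. At least 1 E-box is present in 7.15% of all promoters, and at least 4 in 8 promoters of 6 genes, or 0.0244%. The Cdk2 window holds 1 E2F site, which 1.84% of promoters have, and 6 GC boxes. Matches were counted singly also where the letters of 2 motifs overlap. Cdk6 and 1 of the 2 Cdkn2c promoters also have an E-box. Of the 7 members with a promoter in the table, Cdk2 was the only one with an E2F site in the window searched. A match of letters is a description and was not tested as a binding site.

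Both CDK inhibitors were lower in A2 MNs. Cdkn1b, the gene of p27, is on chromosome 6 (134870419 to 134875531) and had 62.1 FPKM in Hb9 MNs and 29.9 FPKM in A2 MNs. Its log2 ratio was -1.05, a 2.07-fold lower level, and 21.0% of all genes had a lower ratio. Relative to the median gene the ratio was -0.76, which is short of 2-fold. Cdkn2c, the gene of the INK4 inhibitor p18, is on chromosome 4 (109333481 to 109339794) and had 7.72 and 2.25 FPKM. Its log2 ratio was -1.78, a 3.43-fold lower level, and -1.49 relative to the median gene. The level of Cdkn1b was 1.54 times that of Cdk2 in Hb9 MNs and 0.714 times in A2 MNs. The level of Ccne1 was 0.882 times that of Cdkn1b in Hb9 MNs and 3.39 times in A2 MNs. No scaling can alter this 3.84-fold difference, but the Ccne1 entry has the status FAIL.

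The promoter of Cdkn1b, at chr6:134920151-134920450 (plus strand, GRCm38.p6), is shown for the inhibitor with the higher level, with CCAAT boxes (CCAAT on either strand) in capitals.
Cdkn1b: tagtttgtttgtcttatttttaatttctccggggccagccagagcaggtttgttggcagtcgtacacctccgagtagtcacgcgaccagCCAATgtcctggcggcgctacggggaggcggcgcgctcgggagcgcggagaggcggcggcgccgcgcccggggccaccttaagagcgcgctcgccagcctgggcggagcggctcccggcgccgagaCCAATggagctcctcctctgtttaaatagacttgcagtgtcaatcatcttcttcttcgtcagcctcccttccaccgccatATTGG
It holds 3 CCAAT boxes, a motif present at least once in 37.4% of all promoters. Cdk2 and 1 of the 2 promoters each of Ccnd3 and Cdkn2c have a CCAAT box as well. The forkhead site GTAAACA, searched on both strands, was found in 1 of the 2 Ccnd3 promoters, in no other member promoter searched and in 3.65% of all promoters.

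**Figure D3:**
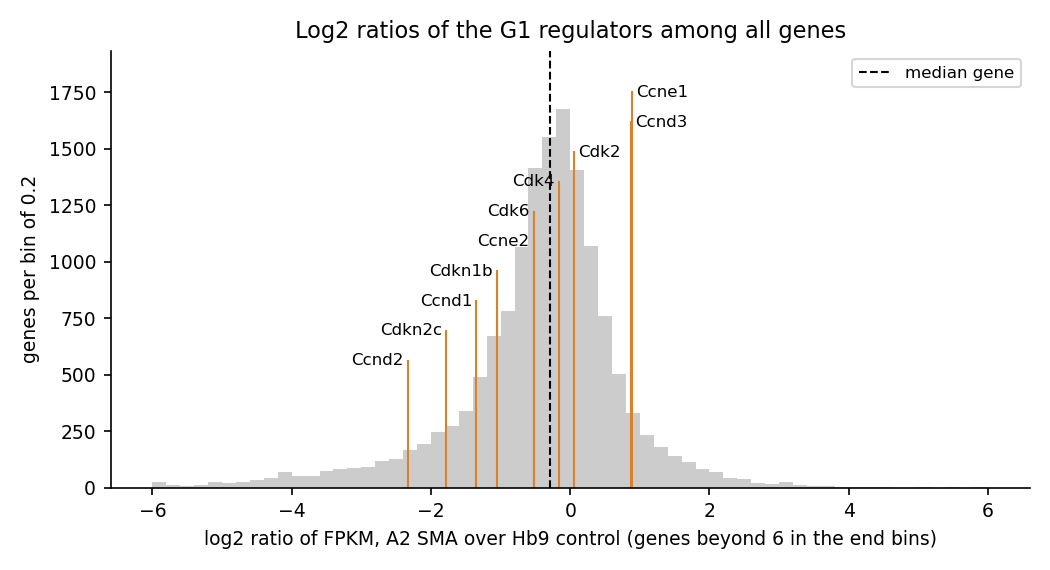
Histogram of the log2 ratio of FPKM (A2 SMA over Hb9 control) over 14926 genes, with lines at the 10 G1 regulators and at the median gene (-0.29). Ccnd2 is lowest at -2.33, and Ccne1 at 0.89 and Ccnd3 at 0.88 stand near each other on the right.

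Some members share exons with a gene on the other strand, and the library kit named in the labels is not described as keeping strand, so such reads may not be told apart. In GENCODE M21, 23.4% of the exon bases of Ccnd1, 19.7% of those of Cdk4 and 17.4% of those of Ccne2 are shared with another gene, against none for Ccne1, Cdkn1b and Cdkn2c. The partners in the table had lower levels than Ccnd1 and Cdk4. Oraov1, in the Ccnd1 locus, was at 27.8 and 15.3 FPKM, a log2 ratio of -0.86. Tspan31, in the Cdk4 locus, was at 96.0 and 57.6 FPKM (log2 ratio -0.74). Ints8, in the Ccne2 locus, was at 43.2 and 40.7 FPKM (log2 ratio -0.09), above Ccne2. Bysl, in the Ccnd3 locus, was at 20.7 and 30.7 FPKM (log2 ratio 0.57), and 4.11% of the Ccnd3 exon bases are shared with it.

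Other CDK inhibitors were read for comparison. Cdkn1c, which encodes p57, was at 176 FPKM in Hb9 MNs and 73.2 FPKM in A2 MNs (log2 ratio -1.27, and -0.98 relative to the median gene, status FAIL). Cdkn1a, which encodes p21, was at 91.7 and 54.0 FPKM (log2 ratio -0.76). The study lists p21 protein, from an earlier immunoblot, as higher in SMA MNs, so RNA levels here do not stand for protein. Summed over Cdkn1a, Cdkn1b and Cdkn1c, the CIP/KIP level had a log2 ratio of -1.07, and -0.78 relative to the median gene. Cdkn1b held 18.8% of this sum in Hb9 MNs and 19.0% in A2 MNs. In the INK4 family Cdkn2a, whose locus also encodes Arf, was at 26.2 and 35.2 FPKM, Cdkn2b at 2.56 and 2.99 FPKM and Cdkn2d at 0.0979 and 0.0537 FPKM. The INK4 sum was 36.6 and 40.5 FPKM, and the share of Cdkn2c in it was 21.1% in Hb9 MNs and 5.57% in A2 MNs.

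Downstream of the G1 kinases, 3 of 13 pocket protein and E2F genes were at least 2-fold lower in A2 MNs (E2f2 at -1.49, E2f6 at -1.19 and Rbl2 at -1.06 on the log2 scale) and 0 were at least 2-fold higher, against 22.4% and 6.83% of all genes. Relative to the median gene only E2f2 (-1.20) stayed past 2-fold, with E2f6 at -0.90 and Rbl2 at -0.77. The list median was -0.42, and -0.13 relative to the median gene. Rb1, the founding pocket protein, had a log2 ratio of -0.95 and E2f5 of -0.55. Among 13 E2F target genes of the G1/S transition, 12 were higher in A2 MNs, against 34.1% of all genes, 2 of them at least 2-fold (Mybl2 at 2.17 and Mcm3 at 1.05). The list median was 0.57, where the median gene was at -0.29. All 13 were higher relative to the median gene, 5 of them at least 2-fold, against 10.4% of all genes. The next largest log2 ratios were 0.94 for Mcm5, 0.77 for Mcm6 and 0.74 for Tyms, or 1.23, 1.06 and 1.03 relative to the median gene. Of 5 S and M phase genes, Cdk1 (0.65), Ccnb1 (0.54), Ccnb2 (0.29) and Ccna2 (0.22) had log2 ratios above 0 and Ccna1 (-0.41) below.

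Upstream of the members, 1 of 9 genes of CDK activation was at least 2-fold lower, against 22.4% of all genes. This was Cdc25b, a phosphatase that activates CDKs (log2 ratio -1.49), and the list median was 0.08. In that list Cdk7, the CDK-activating kinase, was at 0.54, Mnat1 at 0.25, Cks1b at 0.20 and Ccnh at -0.11. Among 10 genes that turn over p27 and G1 cyclins the median was -0.14, but 0.15 relative to the median gene. Gsk3b was at -1.04, Fbxw7, which targets cyclin E for destruction, at -0.94, and Cul4b at 0.82. Relative to the median gene Gsk3b was at -0.75, short of 2-fold, and Cul4b at 1.11, past it. Cul4a was at -0.33 and Rbx1 at -0.28. Of 7 transcription factors upstream of D-type cyclins or p27, Mycl1 had a log2 ratio of -2.26 and the others lay between -0.24 and 0.53, with Foxo1 at 0.53, Foxo4 at 0.47, Foxo6 at -0.24 and Mycn at 0.14. Cdk5, a neuronal kinase outside the cell cycle, had a log2 ratio of -0.54, and its activators Cdk5r1 and Cdk5r2 had ratios of -3.43 and -2.39. Of the genes named here outside the members, Fbxw7, Cul4b, Foxo4, Cdk5r1, Ccna2, Lhx4, Nes, Stmn2, Esrrb, Tdgf1 and Col1a1 also have the status FAIL.

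**Figure D4:**
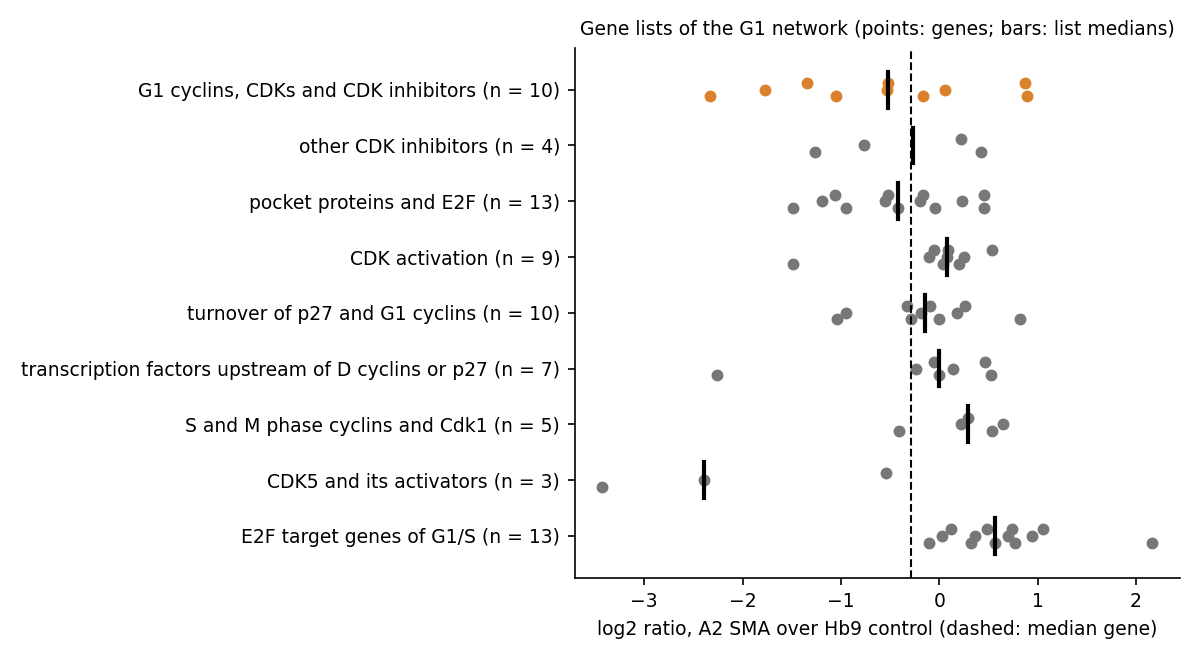
Log2 ratio (A2 SMA over Hb9 control) of each gene above the FPKM filter in 9 lists. Bars mark the median of each list and a dashed line marks the median gene (-0.29). The list of Cdk5 and its activators lies outside the cell cycle. The 10 G1 regulators spread from -2.33 to 0.89, and 12 of the 13 E2F target genes lie above 0.

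The division of the members was compared under other scalings. Relative to the averaged log2 ratio of Gusb, Pgk1 and Rpl13a, the reference transcripts of the study's qRT-PCR, Ccnd3 (1.02) and Ccne1 (1.03) just passed 2-fold and Cdkn1b (-0.91) did not. Ccnd1, Ccnd2 and Cdkn2c were at least 2-fold lower under each of the 3 scalings plotted. Ccne2 and Cdk6 were lower by less than 2-fold under each of them.

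**Figure D5:**
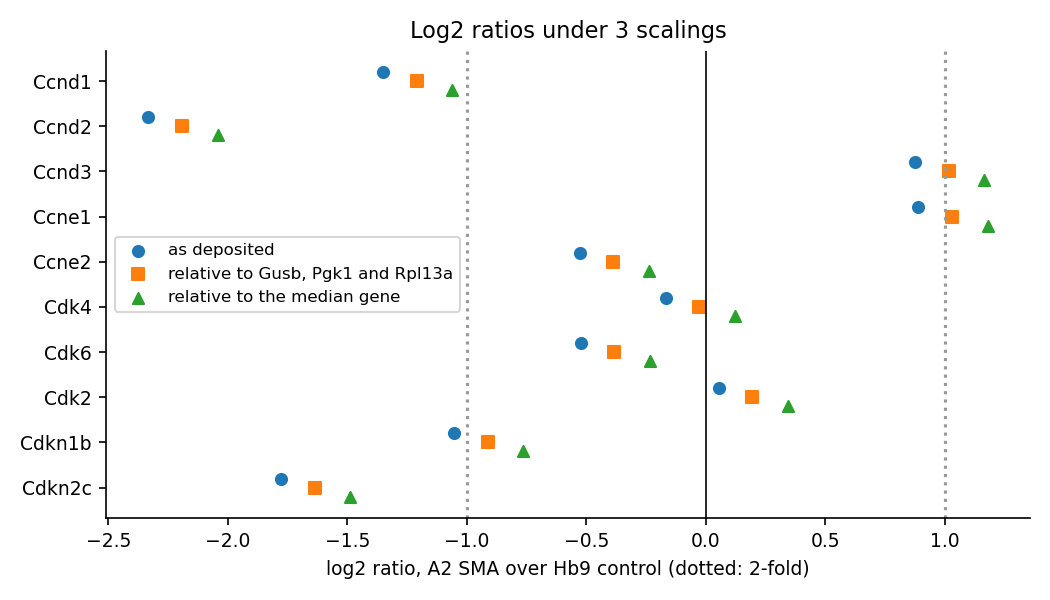
Log2 ratio (A2 SMA over Hb9 control) of each member as deposited (circles), relative to the mean of Gusb, Pgk1 and Rpl13a (squares) and relative to the median gene (triangles), with dotted lines at 2-fold. Ccnd1, Ccnd2 and Cdkn2c lie below the lower line under all 3, Cdkn1b only as deposited, Ccnd3 and Ccne1 lie above the upper line except as deposited, and Cdk4 moves from -0.17 to 0.12.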

How the data were processed

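RNA from 3 Hb9 control and 3 A2 SMA samples of FACS-collected MNs was sequenced. Per the submitters' processing notes and the study's methods, the authors checked reads with FastQC 0.10.1, removed adapters (cutadapt), aligned to NCBI m37 using TopHat 2.04 and an Ensembl annotation, assembled transcripts with Cufflinks and compared genotypes with Cuffdiff. The deposited table holds FPKM as 1 value per genotype for 41945 genes and loci. Its columns of fold changes, test statistics, p-values and q-values, which hold the authors' own comparison, were not used. The study states the reads of each library, but the table gives no read counts, so the depth behind a single value is not known here, and pooled values allow no test.

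Log2 ratios were formed without a pseudocount with Python 3.11.15, numpy 2.4.6 and pandas 2.3.3 (plots: matplotlib 3.10.9). A change of at least 2-fold was counted as called, and genes entered a list count where the higher genotype reached 1 FPKM and neither was at 0 FPKM. Starts are given from 1 (the table counts from 0). Promoters came from RefSeq (GRCm38.p6) by symbol, with 7 of 10 members matched, and exon overlap from GENCODE M21.

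All members were named. From other lists up to 5 genes with the largest absolute log2 ratio were named, and from lists of 5 or fewer all. Mnx1 and Dcn were named beyond this rule after their values were seen. No likeness of patterns was ranked over 2 values. Members, lists and comparisons were chosen with earlier results of these data known. The promoter motifs, the exon overlap, the entries per symbol, the other within-family shares and the ratios of Ccnd3 to Ccnd1, Ccne1 to Cdkn1b and Cdk4 to summed D-type cyclins were added after the values were seen. The listed genes Fbxo31, Cdt1, Slc18a3, Tubb3, Map2 and Sox1 were not analysed here.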

Additional observations from a re-analysis of the deposited data

How the results depend on the processing

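Of the 12 alternatives, only the scalings, the fold limits and the omission of the status FAIL moved values by the criteria given below. Members at least 2-fold higher numbered 2 instead of 0 relative to the median gene, the upper quartile or the reference transcripts, and 2 at a limit of 1.5-fold. Relative to the upper quartile the log2 ratios were 1.16 for Ccnd3, 1.18 for Ccne1, 0.12 for Cdk4 and -0.77 for Cdkn1b. Relative to the median gene they were 1.17, 1.18, 0.12 and -0.76, and relative to the reference transcripts 1.02 for Ccnd3, 1.03 for Ccne1 and -0.91 for Cdkn1b. A limit of 4-fold left 1 member lower, Ccnd2. Without the status FAIL, which drops Ccnd2, Ccne1 and Cdk2, 1 member was higher instead of 3. The D-type cyclin shares and every ratio that uses 1 of these 3 genes could then not be formed. The 8 surrounding lists include Cdk5 and its activators, where Cdk5r1 and Cdk5r2 were at least 2-fold lower, also relative to the median gene. For the 64 genes of these lists together, 2 (3.12%) were at least 2-fold higher and 9 (14.1%) lower, against 6.83% and 22.4% of all genes. These became 6 (9.38%) and 5 (7.81%) relative to the median gene, against 10.4% and 16.5%, 6 and 5 relative to the upper quartile, 8 higher at 1.5-fold, and 1 higher and 3 lower at 4-fold. Their median log2 ratio of 0.03 became 0.32 relative to the median gene, 0.32 relative to the upper quartile, 0.17 relative to the reference transcripts and -0.003 without the status FAIL. The median of the members, -0.53, became -0.24, -0.24 and -0.39 under these 3 scalings in the same order. A total of 217 values kept their direction and side of the limit, or for counts, shares and ratios stayed within 1.5-fold. These include the medians under the scalings. The other 25 values did not. No sample could be left out, since the table pools them. No paired analysis was possible because the columns carry no replicate numbers. The reads behind low FPKM values, such as those of Cdkn2c and Cdk6, are unknown.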
